A study of Mus musculus with 696 samples.

Results

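Sebaceous gland cells were picked out of 696 single epidermal cells of mouse tail skin by their expression of 6 sebocyte genes. For each cell the log2(CPM + 1) values of Scd1, Mgst1, Elovl6, Soat1, Far2 and Pparg were converted to z scores over all 696 cells and averaged, where CPM is counts scaled to a total of 1000000 in each cell. The 60 cells with the highest score were taken as sebaceous gland cells, and the remaining 636 are called other cells. The score was drawn from the same profiles that are described here, so the levels that separate the 60 cells from the other cells are given as a description, without a test.

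The cells came from female mice of a mixed CBA and C57BL/6 background that carried Lrig1-EGFP-ires-CreERT2 and Rosa26-fl/STOP/fl-tdTomato. A single topical dose of hydroxytamoxifen on the tail skin had switched on tdTomato in Lrig1-expressing cells before any wound, so the unwounded controls carried the same alleles and the same treatment, and only progeny of cells in which Lrig1 drove the recombinase could be sorted. Sorted tdTomato+ epidermal cells were sequenced one per well with Smart-seq2, a full-length method without molecular identifiers, at 4 time points with 2 plates each: before wounding (0w, week 0), 1 week after a first full-thickness wound (1w pw1, week 1), 8 weeks after it (8w pw1, week 8), and 1 week after a second, overlapping wound (1w pw2, week 9). The skin taken held the wound bed together with more distant hair follicles. The study's methods name independent experiments with biological replicates, but neither they nor the labels say which animals each plate holds, so each p-value below measures the spread between plates, which may be technical, and each time point carried its own letter in the titles, so that a batch behind that letter cannot be told apart from time.

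The sebaceous gland is attached to the upper hair follicle and makes sebum, an oily mixture of wax esters, triglycerides, sterol esters and free fatty acids. Dividing cells at its rim leave the basement membrane, fill with lipid droplets as they move inwards, and finally burst to release their content into the duct, a holocrine way of secretion. PPARγ, encoded by Pparg, is the nuclear receptor that drives this lipid programme in sebocytes, and the melanocortin receptor MC5R is known to increase sebum output.

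Nuclear receptors such as PPARs bind repeats of the half-site AGGTCA, and SREBP factors bind the sterol regulatory element, written TCACCCCAC in its classical form. These letters were looked for on both strands of the 250 bases before the start site in the RefSeq promoters of GRCm38.p6. AGGTCA or its reverse complement TGACCT was present in 5 of the 19 genes with a promoter sequence among the 25 genes that led the sebaceous gland cells (Cat, Hmgcs1, Ldhb, Oxtr and Plin2), in 2 of 5 such genes of the score (Elovl6 and Pparg) and in 0 of 7 genes that were lowest in these cells. In the list of cholesterol synthesis and uptake these letters were present in 3 of 17 such genes (Dhcr7, Hmgcs1 and Insig1). The same letters stood in 15.8% of all 27025 genes and in 14.0% of all 32851 windows of that length. TCACCCCAC or its reverse complement was present in 1 of the 19 leading genes and in 1 of the 17 cholesterol genes, in each case Hmgcs1. It stood in 0.555% of all genes and 0.496% of all windows. The 4 promoters shown were taken from those with a match, and belong to genes of the lipid programme described below. They are those of the fatty acid elongase Elovl6, the lipid droplet coat protein Plin2, the peroxisomal catalase Cat and the sterol synthesis enzyme Hmgcs1. Each runs from base -250 to base -51 before the start site on the gene's own strand, with the matching letters in capitals, and a match is a string of letters and not a measured binding site. They lie at chr3:129532136-129532335 (Elovl6, + strand, first matching base at -193), chr4:86670110-86670309 (Plin2, - strand, -218), chr2:103485204-103485403 (Cat, - strand, -204) and chr13:119690101-119690300 (Hmgcs1, + strand, TGACCT at -246 and TCACCCCAC at -137).
Elovl6: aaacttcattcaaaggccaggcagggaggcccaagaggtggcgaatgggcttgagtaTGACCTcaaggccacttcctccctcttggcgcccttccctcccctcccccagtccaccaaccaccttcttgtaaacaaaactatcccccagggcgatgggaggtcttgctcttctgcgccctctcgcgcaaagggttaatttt
Plin2: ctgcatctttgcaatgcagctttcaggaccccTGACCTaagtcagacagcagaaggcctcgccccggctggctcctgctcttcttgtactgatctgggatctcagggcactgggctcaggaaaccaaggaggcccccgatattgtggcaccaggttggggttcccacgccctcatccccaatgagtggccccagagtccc
Cat: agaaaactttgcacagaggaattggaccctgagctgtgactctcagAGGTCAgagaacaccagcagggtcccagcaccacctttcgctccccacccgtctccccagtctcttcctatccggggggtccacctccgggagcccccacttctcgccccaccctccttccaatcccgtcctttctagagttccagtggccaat
Hmgcs1: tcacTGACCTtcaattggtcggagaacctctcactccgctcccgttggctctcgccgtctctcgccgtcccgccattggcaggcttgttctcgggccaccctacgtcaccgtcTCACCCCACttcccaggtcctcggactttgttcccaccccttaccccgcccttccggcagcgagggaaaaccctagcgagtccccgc

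The name of the group was compared with 12 further sebocyte genes that the score did not use. They were Awat2, Dgat2, Cidea, Plin2, Plin5, Elovl3, Fasn, Fads2, Acsbg1, Mc5r, Oxtr and Apoc1. Of these, Fads2 had no counts in the 60 cells, Awat2 had counts in 7 and Elovl3 in 18. When all cells were ranked on these 12 genes instead, 46 of the 60 cells (76.7%) were again among the 60 highest, and 29 of the 30 highest-scoring cells were. The cells that dropped out sat low in the score, with a median rank of 47.5 against 23.5 for those that stayed. Scores ran from 3.72 to 0.919 in the 60 cells, and the first cell outside scored 0.810, so the cells just inside and just outside the group lay close together. The sebaceous gland cells held between 10802 and 1000290 counts with a median of 189488, against a median of 130217 in the other cells, and a median of 5207 genes against 4402. Mitochondrial genes took a median of 29.8% of their counts against 19.5%. Among the 60 cells the score followed neither depth (r = 0.054 with log10 counts) nor mitochondrial share (r = -0.017), whereas over all 696 cells these correlations were 0.17 and 0.21. Where shares of cells with counts are given after thinning, every cell was cut at random to 50000 counts, which kept 55 sebaceous gland cells and 505 other cells.

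The 6 genes of the score differed in how widely they were detected within the 60 cells. Scd1, the desaturase that makes oleate and palmitoleate, was found in all 60 cells, with a lowest value of 48.8 CPM, a median of 2829.9 CPM and a highest of 44391 CPM. Mgst1, a microsomal glutathione transferase that is strongly expressed in sebocytes, was also found in all 60, from 83.3 CPM through a median of 1606 CPM to 21343 CPM. Elovl6, which elongates saturated and monounsaturated fatty acids, was found in 59 cells with a median of 248 CPM and a highest value of 4476 CPM. These 3 genes were nearly universal in the group, which the score that they helped to set in part imposes. In the other cells Scd1, Mgst1 and Elovl6 were found in 381, 462 and 113 of 636.
Pparg was found in 57 of the 60 cells, with a median of 73.9 CPM and a highest value of 447 CPM, and in 17 of the 636 other cells. Soat1, which esterifies cholesterol, was found in 40 cells with a median of 23.2 CPM and a highest value of 6109.8 CPM, and in 62 other cells. Far2, which reduces fatty acyl-CoA to the alcohols of wax esters, was found in 34 cells with a median of 15.6 CPM and a highest value of 4039 CPM, and in 28 other cells. Soat1 and Far2 thus had counts in only a portion of the cells that the score collected. In GRCm38 these genes lie at chr6:115360951-115490399 (Pparg), chr1:156424525-156474331 (Soat1), chr6:148047259-148182758 (Far2), chr19:44394455-44407879 (Scd1) and chr3:129532355-129638495 (Elovl6).

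Outside the score, Adh1, Emb, Oxtr, Avpr1a and Tgfbr3 stood furthest above the other cells of the same plates, and the 25 leading genes held receptors, lipid enzymes and genes of other roles. For each gene the mean log2(CPM + 1) of the other cells was subtracted from that of the sebaceous gland cells on each of the 6 plates with at least 3 sebaceous gland cells, and the mean difference is given with its SD over these plates. Of 15652 genes, 345 (2.2%) were at least 2 log2 units higher and above the other cells on all 6 plates, and 123 (0.786%) were at least 2 lower and below them on all 6. Regardless of size, 9.7% of all genes were higher and 6.43% lower on all 6 plates. The median difference of all genes was 0.10. On a pseudocount of 10 CPM in place of 1 these counts were 70 and 39, since the log2(CPM + 1) scale gives weight to detection at low levels.

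Adh1, an alcohol dehydrogenase that oxidises retinol and ethanol, had the largest difference outside the score, 6.75 ± 2.56 (SD, n = 6 plates). It was found in 56 of the 60 sebaceous gland cells, with a median of 332 CPM and a highest value of 3413 CPM, and in 61 of the 636 other cells, where its mean was 10.5 CPM. By plate the mean log2(CPM + 1) of Adh1 in the sebaceous gland cells was 7.10 and 7.18 at 0w, 2.52 on the 1w pw1 plate, 8.93 and 8.97 at 8w pw1, and 9.57 on the 1w pw2 plate. The 1w pw1 plate, with its 3 sebaceous gland cells, was the lowest of the 6, and on every plate the other cells stayed at or below 1.03. After thinning, 92.7% of the sebaceous gland cells and 7.13% of the other cells had counts of Adh1, which lies at chr3:138260991-138290698 on the + strand.

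Receptors were also among the leading genes. Oxtr, the oxytocin receptor, was found in 51 of the 60 cells, with a median of 92.4 CPM and a highest value of 1182 CPM, and in 26 of the 636 other cells. Its difference was 5.35 ± 2.09 (SD, n = 6), with 81.8% against 2.18% of cells after thinning. Avpr1a, the vasopressin receptor 1A, was found in the same number of cells, 51, and in 12 other cells, with a median of 166 CPM, a highest value of 1216 CPM and a difference of 5.25 ± 1.59. Both receptors were detected together in 45 sebaceous gland cells and in 6 other cells, so that most cells of the group carried the pair. Mc5r, which makes sebocytes responsive to melanocortins, was found in 47 cells and in 136 other cells, with a median of 67.8 CPM, a highest value of 1024 CPM and a difference of 4.45 ± 2.17. Tgfbr3, a co-receptor for TGF-β, was found in 55 cells with a median of 97.7 CPM and a difference of 5.24 ± 1.55. Oxtr lies at chr6:112473683-112489943 and Avpr1a at chr10:122448499-122453452.
In the 20 receptors listed for sebocytes, 8 were at least 1 higher and 1 was at least 1 lower, with a median difference of 0.56. Of all genes, 13.8% were at least 1 higher and 3.62% at least 1 lower. Prlr, the prolactin receptor, differed by 2.67 ± 1.46 and Fgfr2 by 2.53 ± 0.33, whereas Fgfr3 differed by -1.17 ± 1.02. Lrig1, the gene whose promoter marked the lineage, was found in 35 of the 60 cells and 279 of the 636 other cells and differed by 0.48 ± 1.19.

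Genes of lipid handling were another portion of the list. Plin2, which coats lipid droplets, was found in 59 cells with a median of 238 CPM and a highest value of 4639 CPM, and its difference was 4.72 ± 0.85. Acsbg1, an acyl-CoA synthetase for long chains, was found in 59 cells with a median of 199 CPM and differed by 4.80 ± 1.35. Hmgcs1, an early enzyme of sterol synthesis, was found in 59 cells with a median of 891 CPM and a highest value of 7282 CPM, and it differed by 4.43 ± 1.34. Hmgcs1 was also present in 445 of the other cells, so the distance was one of level as well as of detection. Cat, which breaks down hydrogen peroxide in peroxisomes, was found in 57 cells with a median of 694 CPM and a highest value of 3867 CPM, and it differed by 4.57 ± 1.89. Decr1, a mitochondrial enzyme that prepares unsaturated fatty acids for oxidation, differed by 4.34 ± 1.78, and Idh1, a cytosolic source of NADPH, by 4.43 ± 2.05.
Emb, a partner of monocarboxylate transporters, was found in all 60 cells, with a lowest value of 24.6 CPM, a median of 1393 CPM and a highest of 6299.9 CPM, and its difference was 6.41 ± 1.09. Slc16a1, the monocarboxylate transporter MCT1, differed by 4.39 ± 2.04 and Ldhb, the lactate dehydrogenase subunit that favours pyruvate, by 4.35 ± 2.16. Emb was the only one of the 25 genes found in all 60 cells. Further leading genes were Tlcd4 (5.21), Secisbp2l (4.98), Gsta3 (4.79), Lama4 (4.75), Akr1c18 (4.50), Gk5 (4.48), Rgcc (4.42), Acp5 (4.29), Ripply3 (4.24) and Psph (4.20), each higher on all 6 plates. Gsta3 and Akr1c18 belong to families of close paralogs whose reads can be shared, so their values are uncertain. The plot of the leading genes by plate shows the 1w pw1 plate at the left for most of them, a plate whose 3 sebaceous gland cells include the pair at ranks 51 and 55 described below.

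**Figure D1:**
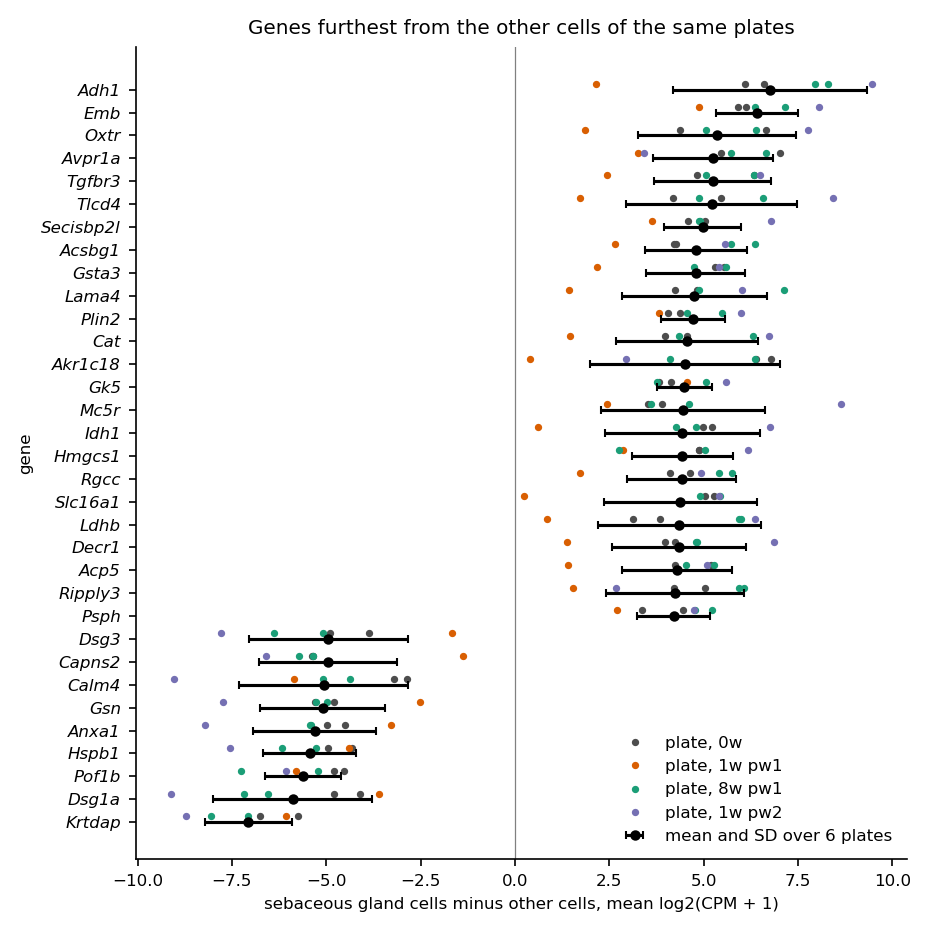
Genes outside the score with the largest differences between sebaceous gland cells and other cells, one gene per line, with the difference in mean log2(CPM + 1) on the horizontal axis. Black points and bars are the mean and SD over 6 plates, and small coloured points are single plates by time point. Of the genes shown Adh1 had the highest difference, 6.75, and Krtdap the lowest, -7.06.

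The lipid gene groups were compared as whole lists. In cholesterol synthesis and uptake, 17 of 24 genes were at least 1 higher and 0 were at least 1 lower, with a median difference of 1.98 beside 0.10 for all genes. Examples were Idi1 (3.84 ± 1.84) and Acat2 (3.25 ± 1.19), while Sc5d (-0.34 ± 1.07) and Dhcr7 (-0.06 ± 0.51) were not above the other cells. In the peroxisome and ether lipid list, 18 of 27 genes were at least 1 higher and 0 lower, with a median of 1.69, and the thiolase Acaa1a differed by 3.46 ± 0.79. In fatty acid synthesis and activation, 16 of 29 genes were at least 1 higher and 5 at least 1 lower, with a median of 1.44.
Within the fatty acid list the members split by enzyme. Fasn, the fatty acid synthase, differed by 3.48 ± 1.06, Hacd3 by 3.38 ± 1.36, and Tecr, the last step of elongation, by 2.99 ± 0.87. Scd2, a close paralog of Scd1, was found in 21 of the 60 cells and 459 of the 636 other cells and differed by -2.38 ± 2.34, the opposite of Scd1, with which it can share reads, so both values are uncertain. Elovl4, which makes the very long chains of barrier lipids, was found in 4 cells and 259 other cells and differed by -1.78 ± 1.19, and Elovl7 differed by -1.93 ± 1.02. The delta-5 and delta-6 desaturases Fads1 and Fads2, with Fads3 and Thrsp, had 0 counts in all 60 cells, but they were also rare elsewhere (29, 20, 16 and 10 of 636 cells).
In the wax, triglyceride and lipid droplet list, 14 of 28 genes were at least 1 higher and 2 at least 1 lower, with a median of 0.99. Gpam, the first acyltransferase of triglyceride synthesis, differed by 3.81 ± 1.78, Mgll by 3.60 ± 1.83 and Dgat2 by 3.41 ± 0.77. Awat2, a wax synthase, had counts in 7 of 60 cells and 20 of 636 other cells, and Lipe, hormone-sensitive lipase, differed by -1.45 ± 0.91. The wax synthase thus was detected in few of the cells, although Far2, the preceding step, was found in 34.

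Among 26 transcription factors and cofactors of sebocytes and lipid genes, 10 were at least 1 higher and 2 at least 1 lower, with a median of 0.41. Srebf1, the SREBP gene of fatty acid synthesis, differed by 3.12 ± 1.28, and Ppara by 1.86 ± 0.55. Klf5 (-3.10 ± 1.63) and Gata6 (-1.92 ± 0.55), the latter a factor of the sebaceous duct, were the pair that was lower. Prdm1, once described in sebocyte progenitors, had counts in 1 of 60 cells.
In retinoid, steroid and xenobiotic metabolism, 9 of 27 genes were at least 1 higher and 2 at least 1 lower, with a median of 0.35. Cbr1, a carbonyl reductase, differed by 3.91 ± 0.86, Mgst2 by 2.94 ± 0.57 and Dhrs3, a retinal reductase, by 2.38 ± 1.26. The retinoic acid carrier Crabp2 lay the other way, at -2.80 ± 1.21, with counts in 2 of 60 cells. The plot of gene groups shows the sterol, peroxisome and fatty acid lists to the right of the line for all genes and the suprabasal and duct lists to the left.

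**Figure D2:**
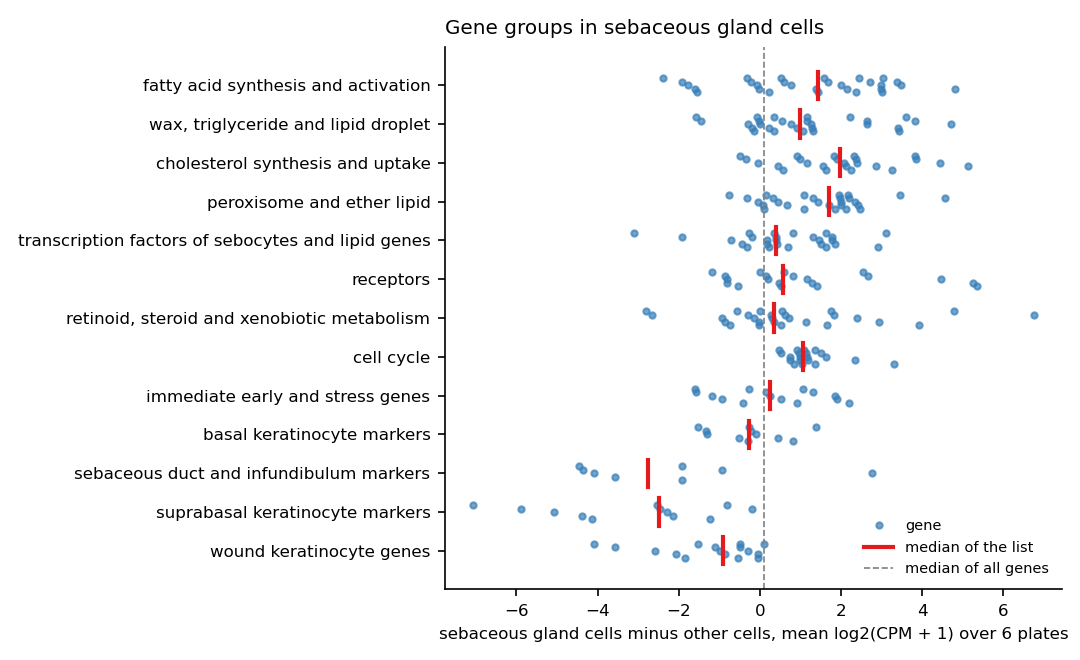
Difference in mean log2(CPM + 1) between sebaceous gland cells and other cells over 6 plates, one point per gene, for each gene list. Red bars are list medians and the dashed line is the median of all genes, 0.10. The cholesterol list has the highest median of the lists outside the score, 1.98, and the suprabasal list lies at -2.49.

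The genes furthest below the other cells included several of the differentiating epidermis. Krtdap, a secreted protein of suprabasal cells, was found in 7 of 60 cells and 530 of 636 other cells, with a difference of -7.06 ± 1.15. Dsg1a, a desmosomal cadherin of upper layers, was found in 5 and 507 cells and differed by -5.89 ± 2.10. Others were Pof1b (-5.61), Hspb1 (-5.44), Anxa1 (-5.30), Gsn (-5.10), Calm4 (-5.07), Capns2 (-4.96) and Dsg3 (-4.94), each lower on all 6 plates. In the whole suprabasal list 0 of 12 genes were at least 1 higher and 10 were at least 1 lower, with a median of -2.49.
In the list for the sebaceous duct and infundibulum 1 of 8 genes was at least 1 higher and 6 at least 1 lower, with a median of -2.74. The exception was Krt79, a keratin of the duct and upper follicle, which was found in 54 of 60 cells and 308 of 636 other cells. Its mean log2 difference was 2.75 ± 0.52, but its mean level was 656 CPM against 3942 CPM, so more of the sebaceous gland cells had counts while other cells reached far higher values. Krt6a, a keratin of wound-edge epidermis, had counts in 4 of 60 cells against 331 of 636, and in the list of 16 wound keratinocyte genes 0 were at least 1 higher and 7 at least 1 lower, with a median of -0.92. At 1w pw2 the summed level of that list had a median of 8767 CPM over the 4 sebaceous gland cells against 4037 CPM in the other cells, but 99.95% of the sum in the former was Fabp5, a fatty acid binding protein, and only 3 of the 16 genes had counts in these 4 cells.
Basal keratins were kept in part. Krt14 was found in all 60 cells and differed by 0.46 ± 0.70, and Krt5, its partner, in 39 cells with a difference of -1.30 ± 1.65. The levels of Krt14 lay the other way. Its medians were 499, 702 and 904 CPM in ranks 1 to 20, 21 to 40 and 41 to 60. In the other cells its median was 1153 CPM, with counts in 560 of 636. The 11 basal markers had a median of -0.27, the 6 junctional zone markers -0.84 and the 8 bulge markers -0.71, the highest of the last being Thbs1 at 2.65 ± 1.28.

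Markers of cells outside the epidermis were close to absent. The fibroblast genes Col1a1, Col1a2 and Dcn had 0 counts in all 60 cells, and the summed level of the 5 fibroblast markers ranged from 0 to 133 CPM with a median of 0. Ptprc, the pan-leukocyte marker, had counts in 4 cells, and the 5 immune markers summed to between 0 and 364 CPM with a median of 0. Of the adipocyte markers, Plin1 had counts in 2 cells and Fabp4 in 4, while the lipoprotein lipase gene Lpl was found in 53 cells and differed by 3.84 ± 1.08. The 4 melanocyte markers summed to a median of 0 CPM, with 0 counts of Tyr. Kdr had counts in 1 cell, whereas Pecam1, the other endothelial gene in the table, had counts in all 60 cells and in 627 of 636 other cells, and so told no cell type apart here. Of 14 glycolysis genes 2 were at least 1 higher and 0 lower (median 0.60), and of 15 immediate early and stress genes 5 were higher and 3 lower (median 0.26).

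Within the 60 cells, some genes followed the score and others ran against it. The score ordered the cells and the genes were picked by this correlation, so the values are a description over 60 cells on log2(CPM + 1). The highest were Cidea (r = 0.88), a lipid droplet fusion protein, Mfsd2a (0.85), a lysolipid transporter, Lpcat3 (0.81), Sdr16c6 (0.80), Cers4 (0.79), a ceramide synthase, and Elovl3 (0.79), an elongase of sebum fatty acids. The lowest were Krt5 (-0.81), Krt15 (-0.72), Aldh3a1 (-0.72), S100a11 (-0.68), Il33 (-0.66) and the hemidesmosome integrin Itgb4 (-0.66).
Cidea was found in all 20 cells of ranks 1 to 20, with a lowest value of 20.2 CPM, a median of 313 CPM and a highest of 1549.98 CPM, in 4 of the 20 cells of ranks 21 to 40, and in 1 of the 20 cells of ranks 41 to 60. In the same order of ranks Cers4 had medians of 2649.5 CPM, 82.4 CPM and 17.9 CPM. Elovl3 was found in 16, 2 and 0 cells of these 3 sets, Mfsd2a in 18, 1 and 0, Soat1 in 20, 13 and 7, and Far2 in 20, 11 and 3. Soat1 and Far2 belong to the score that ranked the cells, and the others were picked for following it, so these counts describe the order and do not support it.
Krt5 ran the other way, with counts in 2, 18 and 19 cells and medians of 0, 85.4 and 167 CPM. Krt15, a keratin of basal and stem cells, was found in 0, 12 and 19 cells, Itgb4 in 5, 16 and 16, and the alarmin gene Il33 in 2, 17 and 16. These genes were picked for running against the score. Other basal genes also had negative correlations, -0.64 for Col17a1, -0.41 for the integrin gene Itga6 and -0.21 for Krt14, but the last 2 kept counts in most cells of ranks 1 to 20. Krt14 was found in 20, 20 and 20 cells, with medians of 499, 702 and 904 CPM, and Itga6 in 15, 19 and 18, with medians of 32.0, 111 and 138 CPM. Taking Krt5 and Soat1 as one gene of each side, 19 cells had counts of Krt5 alone, 20 of Soat1 alone, 20 of both and 1 of neither. Soat1 belongs to the score and Krt5 was picked for running against it, so this split is a description only.

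The other sebocyte genes differed in how far they followed this order. Mc5r did so (r = 0.65), with counts in 20, 18 and 9 cells of the 3 sets and medians of 328, 66.0 and 0 CPM, as did Fasn (r = 0.63), with counts in 20, 20 and 14 cells, and Dgat2 (r = 0.55), with counts in 19, 15 and 12. Pparg, a gene of the score, had a correlation of 0.31 and was found in 20, 20 and 17 cells, with medians of 103, 116 and 39.5 CPM. Oxtr (r = 0.015) was found in 18, 18 and 15 cells, with medians of 86.3, 109.7 and 87.7 CPM. Avpr1a (r = -0.28) was found in 14, 20 and 17 cells with medians of 21.1, 199 and 197 CPM, and Adh1 (r = 0.27) in 19, 20 and 17. Oxtr, Avpr1a and Adh1 were therefore found in most cells of each set. Pparg was too, but its values helped to choose the cells. The 3 sets held 10, 14 and 11 cells from 0w, 1, 1 and 2 from 1w pw1, 6, 4 and 7 from 8w pw1, and 3, 1 and 0 from 1w pw2. Their median counts were 206675, 254049 and 124036, so the last set was the shallowest.

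**Figure D3:**
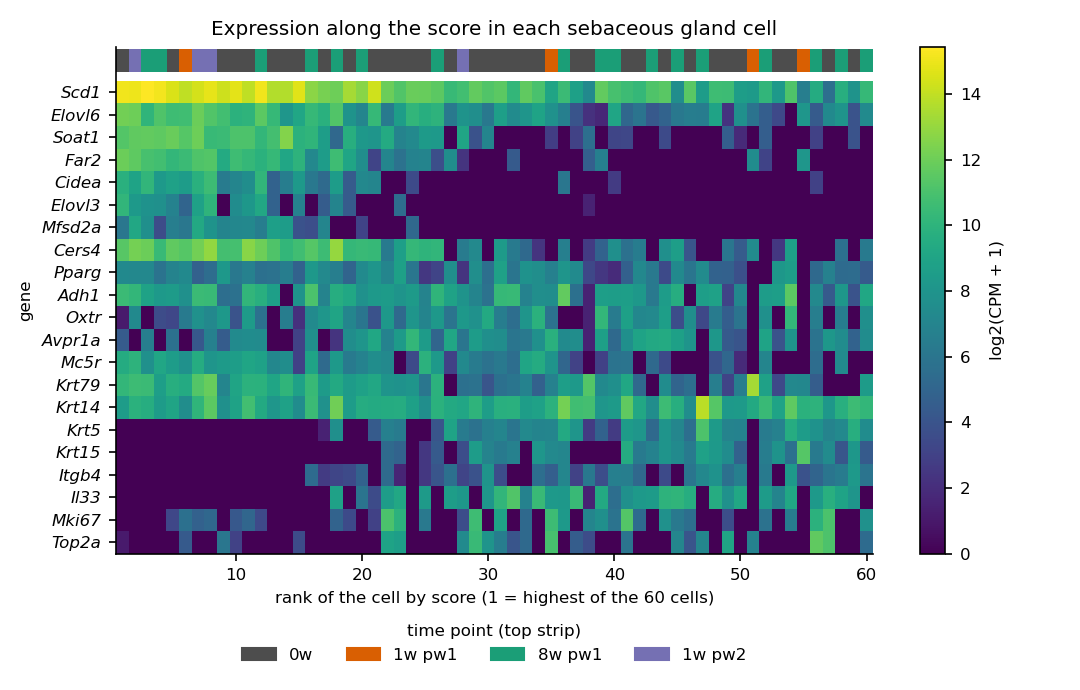
Level of each gene as log2(CPM + 1) (colour) in each of the 60 sebaceous gland cells, ordered by score from left (rank 1) to right (rank 60), with the time point of each cell in the strip on top. Counts of Cidea, Elovl3 and Mfsd2a lie mainly in ranks 1 to 20, and those of Krt5 and Krt15 mainly in ranks 21 to 60.

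Part of the sebaceous gland cells expressed genes of the cell cycle. Mki67, a marker of cycling cells, had counts in 33 of the 60 cells and in 114 of the 636 other cells, and it differed by 2.35 ± 0.57 (SD, n = 6 plates). Mki67 and Top2a, a topoisomerase of dividing cells, were found together in 17 and in 64 cells. Along the score Mki67 had counts in 9, 13 and 11 of 20 cells, but its highest value was 49.96 CPM in ranks 1 to 20 against 2175 CPM in ranks 21 to 40 and 2503 CPM in ranks 41 to 60. Its highest levels were thus found below rank 20. Of the 20 cell cycle genes 11 were at least 1 higher and 0 at least 1 lower, with a median of 1.07, and Tyms, which makes thymidylate, had the largest difference, 3.31 ± 1.34. The sebaceous gland cells held more counts per cell than the other cells, and the part of depth in these shares was not tested.

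The genes whose pattern over all 696 cells was most like the score, by Pearson correlation of log2(CPM + 1), were Adh1 (0.72), Mettl7b (0.70), Lama4 (0.69), Aadacl2fm2 (0.68), Elovl3 (0.66), Oxtr (0.66), Bche (0.65), Dusp4 (0.65), Nrg4 (0.65) and Fa2h (0.65). All cells share the same score genes and library type, and no p is given. Aadacl2fm2 was found in 18 of the 60 cells and in 0 of the 636 other cells. Cells of low depth can express a gene without counts of it, so no limit on the share of expressing cells is drawn from that 0. Mettl7b, a protein of lipid droplets, was found in 26 and 2 cells, and Bche, butyrylcholinesterase, in 35 and 6. Several of the most specific genes were thus detected in a minority of the group.

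The share of sebaceous gland cells among sorted cells differed between time points. At 0w they were 12 of 88 cells on plate 1, 13.6% (exact Clopper-Pearson 95% interval 7.25% to 22.6%), and 23 of 91 cells on plate 2, 25.3% (16.7% to 35.5%). At 1w pw1 they were 1 of 89 (1.12%, 0.028% to 6.10%) and 3 of 79 (3.80%, 0.790% to 10.7%). The plates of the first healing phase lay below both plates before wounding. At 8w pw1 they were 6 of 85 (7.06%, 2.63% to 14.7%) and 11 of 87 (12.6%, 6.48% to 21.5%), and at 1w pw2 they were 3 of 86 (3.49%, 0.725% to 9.86%) and 1 of 91 (1.10%, 0.028% to 5.97%). The 4 plates taken 1 week after a wound, at most 3.80%, did not overlap with the 4 plates of 0w and 8w pw1, at least 7.06%. The intervals cover counting error only.
The mean share was 19.5% ± 8.23 (SD, n = 2) at 0w. It was 2.46% ± 1.89 in the first and 2.29% ± 1.69 in the second healing phase, and 9.85% ± 3.95 at 8w pw1. An exact permutation test of time point over the 2520 arrangements of the 8 plates gave a two-sided p of 0.0190. The mean of the 4 plates 1 week after a wound was 2.38% ± 1.47 (SD, n = 4) against 14.7% ± 7.65 (n = 4) for the others, a difference of -12.3 percentage points with an exact permutation p of 0.0286, the smallest that 70 splits can give. With the 60 cells chosen by the 12 further genes in place of the score, the difference was -10.6 percentage points and the exact permutation p over time points 0.00952. Without plate 2 of 0w the exact permutation p over time points was 0.171 and the difference -8.74. With cells under 50000 counts left out the p over time points was 0.162 by the same exact permutation test, and the difference -15.5. A lower share can come from fewer sebaceous gland cells or from more of the other tdTomato+ cells among those sorted, which cannot be told apart.

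**Figure D4:**
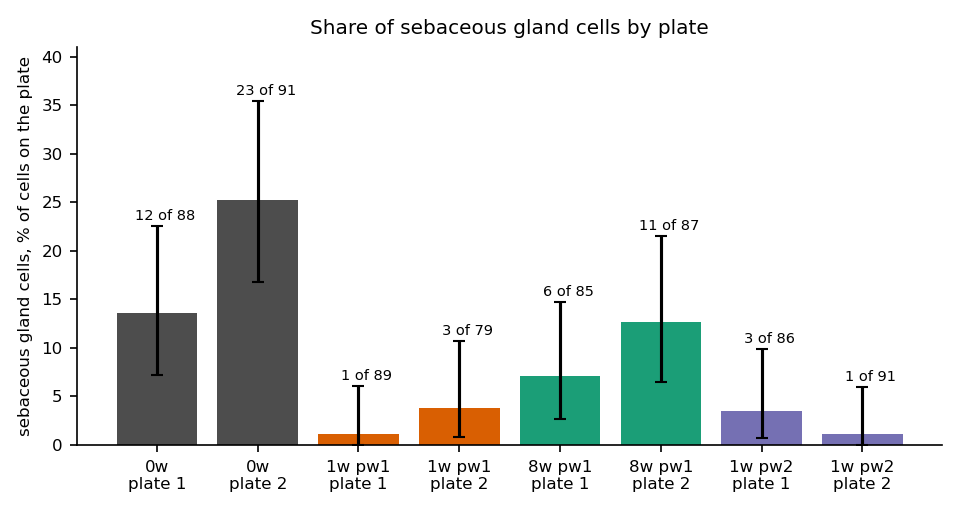
Share of sebaceous gland cells among all cells of each plate, in percent, with exact 95% binomial intervals as bars and the numbers of cells above them. The 4 plates of 1w pw1 and 1w pw2 lie at 3.80% or below and the 4 plates of 0w and 8w pw1 at 7.06% or above.

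The 8 sebaceous gland cells taken 1 week after a wound were few enough to describe singly. At 1w pw2 they held ranks 2, 7 and 28 on plate 1 and rank 8 on plate 2, and Scd1 reached 33192, 22589, 1750.3 CPM and 29472 CPM in them. The cells of ranks 2, 7 and 8 had 0 counts of Krt5 and held Cidea at 498, 893 and 1549.98 CPM, and Fasn at 3906, 3916 and 1618 CPM. So 3 of the 4 cells of the second healing phase stood high in the score, which Scd1 helped to set. Cidea and Krt5 were picked for following the score or running against it, so their levels describe the rank and do not support it. Lipid was not measured. At 1w pw1 the cell of plate 1 held rank 6, with Scd1 at 16276 CPM and Cidea at 369.7 CPM, and those of plate 2 held ranks 35, 51 and 55.
The cell of rank 35 was a basal and cycling one, with Krt5 at 128 CPM, Mki67 at 1528 CPM and Avpr1a at 877 CPM. The cells of ranks 51 and 55 had 0 counts of Oxtr, Avpr1a, Adh1, Mc5r and Pparg, and they lay near the boundary of the score. The cell of rank 51 carried duct and suprabasal genes instead, with Krt79 at 10426 CPM, Krt10 at 5490.2 CPM, Krt17 at 3334 CPM and Skint10 at 7584 CPM. These markers go against the name for that cell. The cell of rank 55 held Krt15 at 2664 CPM and Fos at 8285 CPM, so its name is uncertain too. The sums of the 1w pw1 plate used below contain both cells. Names were also uncertain at 0w. There the cell of rank 38 held Krt79 at 2577 CPM, with Oxtr, Avpr1a and Adh1 at only 1.81, 1.80 and 1.80 CPM. The 0w cell of rank 59 held Krt5 at 808 CPM and Adh1 at 14.2 CPM, with 0 counts of Oxtr and Mc5r. Leaving out cells without counts of Oxtr, Avpr1a and Adh1, as done below, keeps these 0w cells.

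Expression over time within the group was tested on counts summed over the sebaceous gland cells of each plate. The 6 plates with at least 3 such cells entered (both of 0w and 8w pw1, 1 of 1w pw1 and 1 of 1w pw2), with sums between 438345 and 7088470 counts. edgeR's quasi-likelihood test with Benjamini-Hochberg adjustment over 10479 genes had 2 residual degrees of freedom, so the lone plates of 1w pw1 and 1w pw2 were assumed to vary like the others. Levels per plate below are CPM of these sums after TMM scaling. A gene was called at an adjusted p under 0.05 and a fold above 2.

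At 1w pw1 against 0w edgeR called 4 genes higher and 0 lower, 0.0382% of the genes tested. DESeq2 called 35 higher and 56 lower, and edgeR with every cell scaled equally 33 and 18, so the number and the balance of directions depended on the tool and the scaling. They were Krt17, a keratin of duct and wound-edge cells, Dapl1, a gene of early epithelial differentiation, and Skint10 and Skint9, of an epidermal immunoglobulin-like family with close paralogs. Krt17 stood at 10.1 and 10.3 CPM on the plates of 0w and at 1649 CPM at 1w pw1, a log2 fold change of 7.33 with SE 0.93 and an edgeR adjusted p of 0.0222. Skint10 and Skint9 had 0 counts at 0w, and against a floor of 3 counts over the group they were at least 13350-fold and at least 8177-fold higher (edgeR adjusted p 0.00317 and 0.0049). Dapl1 had 1 count at 0w and 401 at 1w pw1, a ratio of counts per total of 7072 with an interval of 1262 to 280010 that covers counting error only and takes reads as independent molecules (edgeR adjusted p 0.0354).
All Skint10 and Skint9 counts of that plate came from the cell of rank 51, which also held most of the Krt17 and Dapl1, the latter at 1309 CPM there against 125 CPM in the cell of rank 55 and 0 in that of rank 35. When plates with a single sebaceous gland cell were added, edgeR called 0 genes. It also called 0 when the cells of ranks 51 and 55, the only ones without counts of Oxtr, Avpr1a and Adh1, were left out, on the same 6 plates or with the single-cell plates added. The cell of rank 35, then alone on the 1w pw1 plate, had 0 counts of Krt17. Ermp1 had the smallest p on the lower side, with a log2 fold change of -6.90 that did not pass (edgeR adjusted p 0.0658). It stood at -5.55 without those cells on the same plates, but at 1.05 with the single-cell plates added and all cells kept. Soat1 and Scd1, whose values helped to choose the cells, are given without a test, at -8.24 and -4.51, and with the single-cell plates added they stood at 1.19 and 0.017. Acsl4 and Nap1l1 did not pass on the lower side, nor Serpinb3b, Dlg2, Krt10, Olah and Krt1 on the higher side. The 11 suprabasal genes tested were all above 0 at 1w pw1, with a median log2 fold change of 4.23 beside -0.79 for all genes. Without the cells of ranks 51 and 55, on the same plates, 0 of the 10 suprabasal genes tested were above 0, with a median of -7.08 beside -3.45 for all genes.

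At 8w pw1 0 genes were called against 0w by edgeR, 628 (5.99%) had an unadjusted p under 0.05, and DESeq2 called 56. The lipid lists had median log2 fold changes of 0.04 for fatty acid synthesis, -0.14 for cholesterol synthesis, 0.64 for wax and lipid droplets and 0.61 for peroxisomes, beside -0.03 for all genes. Several lists stood lower, with no gene called in any of them. The sebaceous duct and infundibulum list had 1 of 8 genes above 0 with a median of -2.75, the wound keratinocyte list 0 of 5 tested with -2.07, the immediate early and stress list 2 of 15 with -1.80, and the suprabasal list 4 of 11 with -1.04. At an unadjusted p under 0.05 were 3, 1, 4 and 5 genes of these lists.
Fos, an immediate early transcription factor, stood at 906 and 749 CPM on the 0w plates and 72.3 and 55.1 CPM on the 8w pw1 plates, a log2 fold change of -3.70 with SE 0.65 that did not pass (edgeR adjusted p 0.342). Fos had counts in 29 of 35 sebaceous gland cells at 0w and 4 of 17 at 8w pw1. Ucp2, a mitochondrial carrier, stood at 359 and 165 CPM at 0w and 1378 and 1663 CPM at 8w pw1, a log2 fold change of 2.54 with SE 0.63 that did not pass (edgeR adjusted p 0.689). Neither gene's plates overlapped between the time points, but with 2 plates against 2 an exact permutation p cannot fall under 0.333. Both genes were named for a small p, and the share of all genes without overlap was not counted. In the other cells Fos had mean levels of 547 and 610.5 CPM at 0w and 237 and 174 CPM at 8w pw1, so its direction was shared with them, and Ucp2 had 229.8 CPM and 107 CPM at 0w and 251 and 115 CPM at 8w pw1.
Bhlhe41, a clock-related repressor, was the gene of smallest p on the higher side, with a log2 fold change of 1.96 that did not pass (edgeR adjusted p 0.585), and it had counts in all 696 cells. Whether reads of other transcripts were counted under Bhlhe41 was not tested, so its level is uncertain. Zfp977, Gorab and Steap2 on the higher side and Cst6, Zfp995 and Gm7072 on the lower side did not pass either.

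The difference over time was also compared between sebaceous gland cells and other cells of the same plates, as an interaction over 14198 genes. The reported fit had no plate term, so it took the 2 sums of a plate as independent. With a plate term edgeR called 0 genes higher and 6 lower at 8w pw1 against 0w. At 8w pw1 against 0w edgeR called 1 gene, which was lower, 0.00704% of those tested, with 891 (6.28%) at an unadjusted p under 0.05, and DESeq2 called 13 higher and 66 lower. This was Egr2, an immediate early zinc finger factor. In the sebaceous gland cells its mean level was 134 and 246 CPM on the plates of 0w, 79.9 and 139.7 CPM at 1w pw1, 0 and 0 CPM at 8w pw1, and 39.3 and 0 CPM at 1w pw2. In the other cells it was 177 and 299.9 CPM at 0w and 319 and 219.6 CPM at 8w pw1, so they kept the gene where the sebaceous gland cells had none. By cells, 20 of 35 sebaceous gland cells had counts of Egr2 at 0w and 0 of 17 at 8w pw1. On summed counts its level in them at 0w was 168 CPM against a floor of 0.671 CPM at 8w pw1, at least 250.3-fold higher.
The edgeR adjusted p of this Egr2 difference was 0.0383. It was 0.111 without plate 1 and 0.467 without plate 2 of 0w, 0.430 without plate 1 and 0.443 without plate 2 of 8w pw1, and 0.999944 when the 90 highest-scoring cells were taken, so the call was lost in each of these settings. With plates left out the fitted interaction stayed between -13.94 and -13.63, whereas with the 90 cells it was -2.29 in place of -13.83, a size that the prior count sets where a group has 0 counts. Fos had an interaction of -2.05 with SE 0.79 (edgeR adjusted p 0.756) and Ucp2 of 2.47 with SE 0.86 (edgeR adjusted p 0.719), neither of which passed. For 1w pw1 and 1w pw2 the interactions called 0 genes with edgeR, with 1131 (7.97%) and 769 (5.42%) at an unadjusted p under 0.05, and DESeq2 called 138 and 48.

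**Figure D5:**
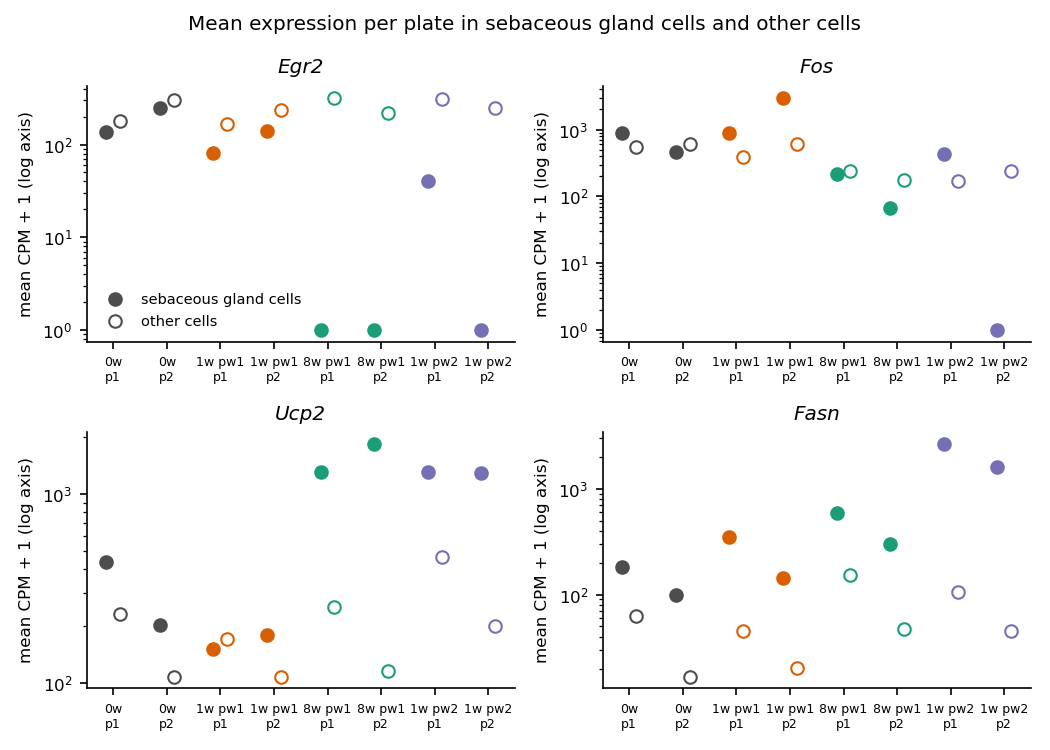
Mean CPM + 1 on a log axis for Egr2, Fos, Ucp2 and Fasn in sebaceous gland cells (filled) and other cells (open) of each of the 8 plates, coloured by time point. Egr2 has 0 counts in the sebaceous gland cells of both 8w pw1 plates and 219.6 and 319 CPM in the other cells there.

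At 1w pw2 against 0w 0 genes were called by edgeR, 806 (7.69%) had an unadjusted p under 0.05, and DESeq2 called 30. The lipid lists stood above the median of all genes, which was -0.78. Fatty acid synthesis had 17 of 25 tested genes above 0 with a median log2 fold change of 0.82, the wax and lipid droplet list 18 of 24 with 1.02, cholesterol synthesis 17 of 24 with 0.63, and peroxisomes 15 of 25 with 0.34. Lower medians were those of the sebaceous duct and infundibulum list, -6.99 with 1 of 8 genes above 0, the suprabasal list, -5.92 with 2 of 11, the wound keratinocyte list, -4.49 with 1 of 5 tested, the bulge list, -3.63 with 1 of 6, the junctional zone list, -3.37 with 2 of 5, and the cell cycle list, -2.20 with 5 of 20. The 1w pw2 sums came from 3 cells, of which the pair at ranks 2 and 7 stood high in the score. The 0w levels of the duct and suprabasal lists can rest on few cells, as described for 8w pw1.
Fasn was among the genes of smallest p, at 147 and 118 CPM on the plates of 0w and 1637 CPM at 1w pw2, a log2 fold change of 3.63 with SE 0.75 that did not pass (edgeR adjusted p 0.623). By mean over cells Fasn had 183 and 98.6 CPM at 0w, 349.7 CPM and 143 CPM at 1w pw1, 592 and 302 CPM at 8w pw1 and 2636 and 1618 CPM at 1w pw2. Both plates of the second healing phase were above all other plates in this measure. However, plate 2 of 1w pw2 and plate 1 of 1w pw1 held only 1 sebaceous gland cell each. Dcaf12l1, Zik1, Zfp994 and H2bc24 on the higher side and Krt10, Tmem45a, Ptbp3, Fam3c and Cst6 on the lower side did not pass.

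The time points 1w pw2 and 1w pw1 were compared as the second against the first healing phase. edgeR called 0 genes, 1276 (12.2%) had an unadjusted p under 0.05, and DESeq2 called 253. Outside the score, the smallest p-values belonged to Ermp1, Nap1l1 and Acsl4 on the higher side. On the lower side they belonged to Krt10, Skint10, Krt17, Tmem45a and Skint9, and none of these genes passed. The same 1w pw1 plate entered this comparison and that of 1w pw1 with 0w. Soat1, whose values helped to choose the cells, is given without a test, with 1 count in the 1w pw1 sum and 855 in the 1w pw2 sum. Ermp1 stood at 6.49 CPM at 1w pw1 and 1079.6 CPM at 1w pw2, a log2 fold change of 7.37 (edgeR adjusted p 0.0669). This was 5.95 without the cells of ranks 51 and 55 on the same plates, and -0.74 with the single-cell plates added and all cells kept.
Between 1w pw2 and 8w pw1 edgeR called 0 genes, 891 (8.5%) had an unadjusted p under 0.05, and DESeq2 called 72. Hlf, Gm7072, Ptp4a1-II, Dcaf12l1 and Egr2 had the smallest p-values on the higher side and Ptbp3, Krt10, Fam3c, Rc3h2 and Qser1 on the lower side, none of which passed.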

How the data were processed

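Single tdTomato+ cells on 8 plates were sequenced, and the deposited values are expected counts per gene that the authors estimated with Salmon 0.13.1 against GRCm38 (mm10), with R 4.0.3 and Seurat named in the submitters' processing notes. Of all values 96.6% were exactly whole (tolerance 0), zeros included, and 87.8% of those above 0, and plate sums were rounded. All 696 cells passed the study's filter of 1000 genes and at most 50% mitochondrial counts, no doublet caller was run on the sorted wells, and 0 cell columns were identical. Plates held 12293200 to 19760800 counts.

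Sums per plate were tested in R 4.3.3 with edgeR 4.0.16 (TMM, filterByExpr, glmQLFit and glmQLFTest), and with DESeq2 1.42.0 as an alternative. The code was tested on simulated data. Levels used a pseudocount of 1 CPM. The alternatives were 40 or 90 cells, a pseudocount of 10 CPM, cells of at least 50000 counts, plates with at least 1 sebaceous gland cell, no filter, equal scaling of cells, a replicate block and each plate left out. The block was the replicate number, or the plate for the differences from other cells. Leaving out cells without Oxtr, Avpr1a and Adh1 (on the same plates, and with plates of at least 1 sebaceous gland cell) and choosing cells by the 12 further genes were decided after seeing the data. Groups came from the labels. Coordinates are those of GENCODE M21 on GRCm38 and promoters those of RefSeq. CPM was not divided by length, so levels of different genes were not compared. The cells and gene lists were chosen with earlier results of these data known. Named genes were the score genes, the 25 highest and 10 lowest, genes of the lists, the 10 most like the score, and in each comparison the called genes or, with fewer than 5, the 5 of smallest p per direction. Some genes that this rule names are not reported here.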

Additional observations from a re-analysis of the deposited data

Results flagged for a closer look

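Egr2 differed between sebaceous gland cells and other cells in its change from 0w to 8w pw1, by a test of the difference itself. The fitted interaction was -13.83 on the log2 scale, a value set by the prior count because the sebaceous gland cells had 0 counts at 8w pw1, with an edgeR adjusted p of 0.0383. Over the alternatives the adjusted p ranged from 1.01e-06 with DESeq2 to 0.999944 with the 90 highest-scoring cells.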

How the results depend on the processing

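The direction of the share of cells, lower on the plates 1 week after a wound, was kept in every alternative run. The exact permutation p over time points, 0.0190, was 0.0571 with 40 cells, 0.0286 with 90 cells and 0.162 with cells of at least 50000 counts. It ran from 0.0190 to 0.171 when each of the 8 plates was left out, with the difference between -14.8 and -8.74 percentage points. The numbers of genes at least 2 higher and at least 2 lower on every plate, 345 and 123, were 643 higher with 40 cells, 124 and 35 with 90 cells, and 70 and 39 with a pseudocount of 10 CPM. They ran from 328 to 512 and from 104 to 160 with plates left out.

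Counts of called genes depended strongly on the setting. For sebaceous gland cells against 0w, the values below are given in the order of 1w pw1, then 8w pw1, then 1w pw2, and edgeR called 4, 0 and 0. DESeq2 called 91, 56 and 30, equal scaling of cells gave 51, 2 and 5, and no filter gave 114, 78 and 28. At 1w pw1 no filter gave 58 higher and 56 lower, and the replicate block 43 and 69. With plates left out they ran from 4 to 62, 0 to 21 and 0 to 8. For 1w pw2 set against 1w pw1, then against 8w pw1, edgeR called 0 and 0, DESeq2 253 and 72, equal scaling 58 and 4, and no filter 133 and 52, with 20 to 45 and 0 to 18 when plates were left out. The 4 calls at 1w pw1 became 0 with plates holding at least 1 sebaceous gland cell and 0 without the cells lacking Oxtr, Avpr1a and Adh1, also on the same 6 plates. With 90 cells, 1w pw2 against 0w gave 7 and against 8w pw1 gave 4.

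For the differences from other cells, in the same order, edgeR called 0, 1 and 0. DESeq2 called 138, 79 and 48, equal scaling 12 at 1w pw1, while no filter gave 5 and 2 for the first 2 of these. With 40 cells 8w pw1 gave 2 and 1w pw2 gave 1. The single call at 8w pw1 became 0 with plates of at least 1 sebaceous gland cell, with 90 cells, and when both the former plates were added and the cells lacking Oxtr, Avpr1a and Adh1 left out, but stayed 1 without those cells on the same 6 plates. With plates left out the counts ran from 0 to 2, 0 to 4 and 0 to 1.

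Plate numbers are shared between time points, and deviations of same-numbered plates correlated at 0.10 in the single pair of time points with both plates, which is too little to settle whether they are paired, and the labels tie the number to no animal or day. A block of the replicate number gave 112, 43 and 62 calls against 0w in that order. It gave 154 and 98 for 1w pw2 set against 1w pw1 and then 8w pw1. For the differences from other cells the block was the plate, shared by the 2 sums of that plate, and it gave 18, 6 and 2.

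Among named genes 15 values reversed. At 1w pw1 against 0w Ermp1, Soat1 and Scd1 became 1.05, 1.19 and 0.017 with plates of at least 1 sebaceous gland cell, and 1.08, 1.21 and 0.044 without the cells lacking Oxtr, Avpr1a and Adh1, also with plates of at least 1 sebaceous gland cell, where Krt10 became -3.28. On the same 6 plates without those cells Krt10 and Krt17 became -4.57 and -7.63. At 1w pw2 against 1w pw1 Ermp1 became -0.74 and -0.76 in these settings. With 90 cells Krt10 and Cst6 became 5.17 and 1.53 at 1w pw2 against 0w, Krt17 0.16 against 1w pw1, and Krt10 4.44 against 8w pw1. The cause was not tested. With 40 cells 1w pw1 had no plate of 3 sebaceous gland cells and its comparisons were not run, and leaving out the only plate of 1w pw1 or 1w pw2 gave no value either. The lone plates of 1w pw1 and 1w pw2, each with 3 sebaceous gland cells, limit what those comparisons can show.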
